A study of Homo sapiens with 13 samples.

Results

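ETS transcription factors bind DNA through a shared winged helix-turn-helix domain, the ETS domain, that reads a GGAA core. Of 10 listed members 7 were measured among 39937 probesets: ETS1, ETS2, EHF, ETV1, ETV4, ETV5 and ETV6. A member was taken where the platform annotation gave its symbol to a probeset, and each of the 7 had 1 probeset. ELF3, ELK1 and ELK3 had no probeset under their symbols in that annotation and are not analysed here, so the epithelial side of the contrast rests on EHF alone.

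RNA came from H1975, an established human lung adenocarcinoma line (non-small cell lung cancer), kept without serum overnight and then held in starvation medium with no EGF for 0, 0.5, 1, 2, 4, 6, 24 or 48 h. The 13 arrays (GeneChip Human Gene ST) comprised 3 replicates for 0 h, 3 for 48 h, 2 for 24 h (numbered 1 and 3) and a single array for each time between. All cells shared the serum withdrawal, and the labels do not say whether replicates were separate cultures, so p-values measure the spread between these arrays, which may be technical. Values are SCAN scores, for which each array is standardised on its own, background lies near 0 and 1 unit is not a log2 fold. A score is read within 1 gene only, since probesets differ in how brightly they bind.

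The epithelial markers EPCAM, KRT7, KRT8, KRT18 and KRT19 averaged between 0.804 and 2.86 over the 13 arrays. The fibroblast markers DCN and LUM averaged -0.110 and 0.0443, the leukocyte markers CD14 and LYZ 0.0608 and -0.0347, and the endothelial VWF -0.0230. KDR, an endothelial receptor, averaged 0.602 and was 0.526 higher at 48 h than at 0 h (adjusted p = 5.85e-05, limma), while CDH5, the endothelial cadherin, averaged 0.241 and was lower by 0.164; their part in the results was not tested. As in any bulk RNA, fewer expressing cells and less RNA per cell cannot be told apart. A pair of arrays stood apart: 0 h replicate 1 and the 2 h array had mean correlations of 0.985 and 0.984 with the other arrays of 0 to 6 h, against 0.991 to 0.992 for the rest. Results are therefore given over 13 arrays and again over 11, without both. The lone 2 h array enters none of the contrasts below, so the change comes from 0 h replicate 1.

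ETS factors divide by how they are controlled. ETV1, ETV4 and ETV5 form the PEA3 group, activators whose genes are held down by the repressor Capicua until ERK signalling relieves it, and whose proteins are ERK substrates. ETS1 and ETS2 are activators that ERK phosphorylates next to the Pointed domain, ETV6 (TEL) is a repressor that polymerises through that domain, and EHF is a factor of glandular and airway epithelium.

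Promoter windows from RefSeq (build GRCh38.p14, the 250 bases before an annotated start) were at hand for 4 of the 7 genes, ETS2, EHF, ETV1 and ETV6, with 11 windows in all. Of each gene's windows the most upstream one in the table is shown, for the gene that passed the test, for the PEA3 gene with a difference in the same direction and for EHF, each written on the strand of its gene, with each GGAA or its reverse TTCC in capitals. That of EHF lies within the annotated span of the gene, whose first base is 34621093, and not before it.
ETV6, plus strand, chr12:11649424-11649673: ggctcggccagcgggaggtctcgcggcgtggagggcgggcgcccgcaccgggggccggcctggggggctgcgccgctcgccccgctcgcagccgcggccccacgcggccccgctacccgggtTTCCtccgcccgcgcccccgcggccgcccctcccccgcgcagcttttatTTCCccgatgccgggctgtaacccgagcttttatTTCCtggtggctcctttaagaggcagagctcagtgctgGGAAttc
ETV1, minus strand, chr7:13991426-13991675: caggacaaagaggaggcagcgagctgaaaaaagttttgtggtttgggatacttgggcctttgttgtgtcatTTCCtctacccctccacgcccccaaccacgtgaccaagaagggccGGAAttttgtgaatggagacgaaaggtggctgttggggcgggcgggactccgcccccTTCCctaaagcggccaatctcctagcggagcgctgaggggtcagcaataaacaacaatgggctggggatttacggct
EHF, plus strand, chr11:34624007-34624256: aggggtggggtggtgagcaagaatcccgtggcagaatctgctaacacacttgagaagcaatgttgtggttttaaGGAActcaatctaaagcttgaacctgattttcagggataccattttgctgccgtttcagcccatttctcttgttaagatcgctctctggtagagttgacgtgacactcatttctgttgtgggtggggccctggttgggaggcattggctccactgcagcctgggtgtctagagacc
The ETV6 window held 4 cores over both strands, that of ETV1 3 and that of EHF 1. A core stood in 92.7% of 35097 promoter windows of this length, with a median of 3. The Capicua octamer, searched on both strands in its 4 forms TGAATGAA, TGAATGGA, TCAATGAA and TCAATGGA, stood in 3.2% of all windows and in 1 of the 11 of these genes. That window is the one of ETV1 shown above, which holds TGAATGGA, a form found in 0.8% of all windows. The 11 windows are not separate stretches, since 6 are of ETV1 and some of these overlap. The longer ETS site CCGGAAGT (in 3.4% of windows), the AP1 site TGACTCA (4.2%) and the CArG box bound by SRF (1.2%), each searched on both strands, had no match in the 11 windows. CCGGAAGT contains the core and is counted in both searches. A match is a run of letters and not a measured binding site.

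The PEA3 genes had different outlines. The ETV1 mean was higher at 24 and 48 h than at 0 h, whereas ETV4 and ETV5 had their lowest means at 48 h, after values above the 0 h mean at 0.5, 1 and 24 h. None of these differences passed the test over 13 arrays. The single arrays of 4 and 6 h for ETV4 and of 2 and 6 h for ETV5 also lay above the 0 h mean. ETV1 (chr7:13891229-13991425) read 1.18, 1.10 and 1.01 on the 0 h arrays, then 1.14, 1.14, 1.19, 1.17 and 1.13 on the single arrays of 0.5, 1, 2, 4 and 6 h, 1.26 and 1.18 on the pair of 24 h, and 1.18, 1.23 and 1.26 on those of 48 h. All 48 h and 24 h arrays lay above all 0 h arrays, although the nearest differed by less than 0.01. The 48 h mean was 1.22 ± 0.0413 and the 0 h mean 1.10 ± 0.0855 (SD, n = 3 each), a difference of 0.127 (SE 0.0473, adjusted p = 0.0923, limma), which did not pass the threshold of 0.05. At 24 h, with a mean of 1.22, ETV1 was 0.121 above 0 h (adjusted p = 0.219, limma). Over 11 arrays both differences passed, at 0.168 for 48 h (adjusted p = 0.00574) and 0.162 for 24 h (adjusted p = 0.0208).

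ETV4 (chr17:43527846-43546340), the founding PEA3 gene, read 0.736, 0.872 and 0.904 on the 0 h arrays, then 0.931, 0.998, 0.782, 0.899 and 0.921 on the single arrays of 0.5, 1, 2, 4 and 6 h, 0.937 and 0.974 on the pair of 24 h, and 0.763, 0.697 and 0.758 on those of 48 h. The 24 h arrays lay above every 0 h array and the 48 h arrays below every 24 h array, and 0 h replicate 1 and the 2 h array were low. The 48 h mean of 0.740 ± 0.0366 (n = 3; SD) lay 0.216 below the 24 h mean of 0.955 ± 0.0260 (n = 2; difference SE 0.0514, adjusted p = 0.0583, limma). Against the 0 h mean of 0.838 ± 0.0890 (SD, n = 3), 48 h was lower by 0.0979 (adjusted p = 0.179) and 24 h higher by 0.118 (adjusted p = 0.219). None of the 3 passed over 13 arrays. Over 11 arrays 48 h fell below 24 h (adjusted p = 0.000876) and below 0 h, by 0.148 (adjusted p = 0.00468), with the 0 h mean at 0.888.

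ETV5 (chr3:186046314-186109089) had a similar outline. It read 1.12, 1.04 and 1.11 on the 0 h arrays, then 1.21, 1.16, 1.13, 1.08 and 1.15 on the single arrays of 0.5, 1, 2, 4 and 6 h, 1.17 and 1.16 on the pair of 24 h, and 1.04, 1.02 and 0.984 on those of 48 h. The 48 h arrays were the lowest of the 13, the highest of them at 1.035 just under 0 h replicate 2 at 1.036. The 48 h mean of 1.01 ± 0.0264 (n = 3) lay 0.149 below the 24 h mean of 1.16 ± 0.00356 (n = 2; SD), with adjusted p = 0.0891 (limma) over 13 arrays and 0.0133 over 11. Against 0 h, 48 h was lower by 0.0749 (adjusted p = 0.176), and over 11 arrays by 0.0593 (adjusted p = 0.238). The 24 h mean was 0.0740 above that of 0 h (adjusted p = 0.323, limma), and 0.0897 over 11 arrays (adjusted p = 0.125).

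**Figure D1:**
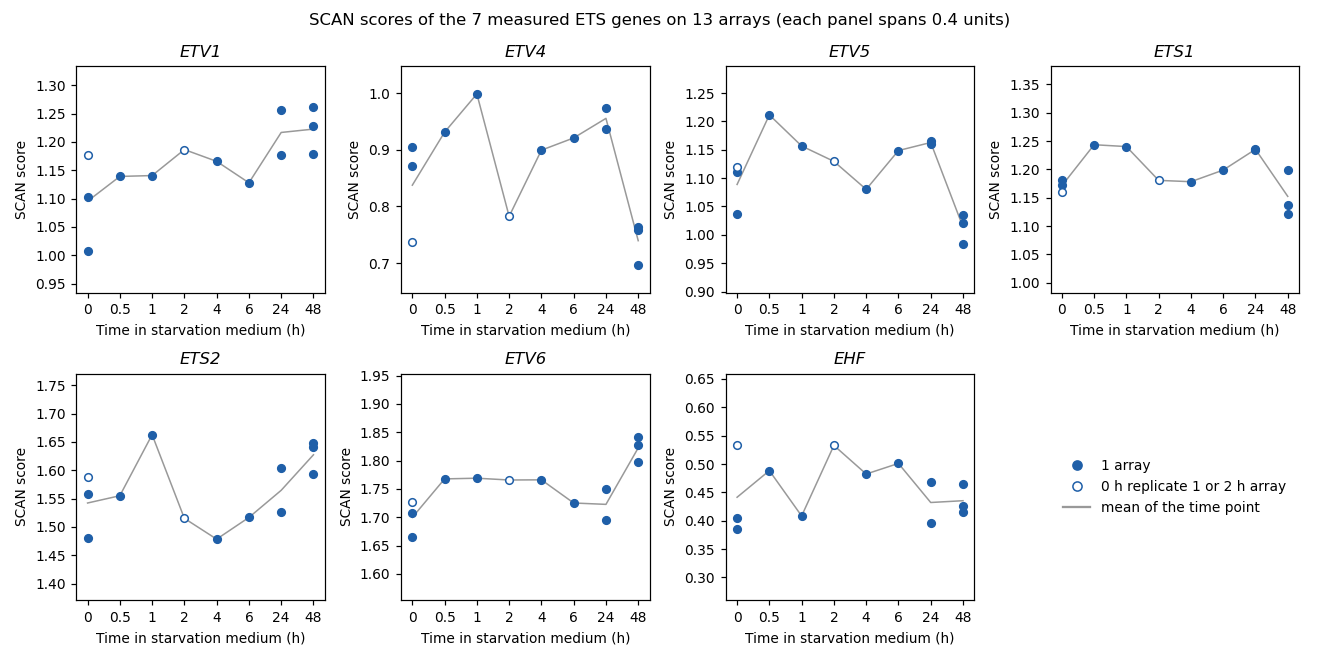
SCAN scores of the 7 ETS genes on each array against time in starvation medium (h, categorical axis), with open points for 0 h replicate 1 and the 2 h array and a line through the time point means; each panel spans 0.4 units. ETV6 at 48 h, between 1.80 and 1.84, lies above all other arrays, and ETV5 at 48 h, between 0.984 and 1.04, below them.

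ETV6 was the member whose change passed the test over 13 arrays. The gene (chr12:11649674-11895377) read 1.73, 1.67 and 1.71 on the 0 h arrays, then 1.77, 1.77, 1.77, 1.77 and 1.73 on the single arrays of 0.5, 1, 2, 4 and 6 h, 1.70 and 1.75 on the pair of 24 h, and 1.84, 1.83 and 1.80 on those of 48 h. All 3 of the 48 h arrays lay above the other 10. It rose to 1.82 ± 0.0226 at 48 h, against 1.70 ± 0.0315 at 0 h (SD, n = 3 each), by 0.123 (SE 0.0338, adjusted p = 0.0285, limma). The call was lost without any one of 5 arrays, with adjusted p = 0.0827 without 0 h replicate 2, 0.0575 without 0 h replicate 3, and 0.111, 0.0928 and 0.0598 without 48 h replicate 1, 2 and 3. Over 17 alternatives it held in 11, with adjusted p from 0.00707 to 0.111 and a difference of at least 0.105. The 11 are not independent. Omitting 0 h replicate 1 and omitting both arrays that stood apart give the same values, and omitting either 24 h array leaves this difference unchanged. At 24 h ETV6 was 0.0230 above 0 h (adjusted p = 0.811).

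ETS2 and ETS1, the ERK-responsive pair that gave the family its name, differed in outline. ETS2 (chr21:38805183-38824955) read 1.59, 1.56 and 1.48 on the 0 h arrays, then 1.55, 1.66, 1.51, 1.48 and 1.52 on the single arrays of 0.5, 1, 2, 4 and 6 h, 1.60 and 1.53 on the pair of 24 h, and 1.65, 1.64 and 1.59 on those of 48 h. The 48 h arrays lay above those of 0 h but not above the 1 h array. The 48 h minus 0 h difference was 0.0851 (SE 0.0395, adjusted p = 0.175, limma) and passed over 11 arrays, at 0.108 (adjusted p = 0.0467). ETS1 (chr11:128458765-128587558) read 1.16, 1.17 and 1.18 on the 0 h arrays, then 1.24, 1.24, 1.18, 1.18 and 1.20 on the single arrays of 0.5, 1, 2, 4 and 6 h, 1.24 and 1.23 on the pair of 24 h, and 1.20, 1.12 and 1.14 on those of 48 h. Like ETV4 and ETV5 it had its highest arrays at 0.5, 1 and 24 h. Both 24 h arrays lay above all of 0 h and 48 h, but no ETS1 difference passed in any of the 5 contrasts over 13 or 11 arrays. That of 48 h to 0 h was -0.0188 (adjusted p = 0.761) and that of 48 h to 24 h -0.0830 (adjusted p = 0.352).

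EHF (chr11:34621093-34663288) had overlapping values at 0, 24 and 48 h. It read 0.534, 0.405 and 0.385 on the 0 h arrays, then 0.488, 0.408, 0.533, 0.482 and 0.501 on the single arrays of 0.5, 1, 2, 4 and 6 h, 0.467 and 0.397 on the pair of 24 h, and 0.416, 0.425 and 0.464 on those of 48 h. The 2 highest arrays were the 2 that stood apart. The 48 h mean of 0.435 ± 0.0257 and the 0 h mean of 0.441 ± 0.0810 (SD, n = 3 each) differed by -0.00610 (95% interval -0.105 to 0.0924, adjusted p = 0.950, limma). Over 11 arrays the difference was 0.0403 (interval -0.0335 to 0.114).

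Read against all 12976 features tested, 1 of 7 members was called higher and 0 lower at 48 h against 0 h, where 9.86% of features were higher and 9.68% lower. The members' median difference was -0.00610 and that of all features -0.00155. Over 11 arrays 3 were higher and 1 lower, beside 14.8% and 12.7% of all features. At 24 h against 0 h, 0 of 7 were called by limma (2 at an unadjusted p under 0.05), beside 5.33% higher and 2.37% lower, and over 11 arrays 1, beside 12.8% and 4.72%. That split of all calls, 691 higher and 307 lower, became 446 and 421 with quantile normalisation and 324 and 612 with arrays centred on their medians. At 48 h against 24 h, 0 of 7 were called (4 at an unadjusted p under 0.05), beside 0.624% higher and 2.21% lower, and over 11 arrays 2 were lower, beside 2.71% higher and 7.61% lower. The split of 81 higher and 287 lower became 112 and 216 with quantile normalisation and 186 and 197 with centring.

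In the mean of 0.5 h and 1 h against 0 h, 7 of 7 members were above 0 h, though 6 with quantile normalisation and 5 with centred arrays. ETV4 at 0.127 (SE 0.0514) and ETV5 at 0.0952 (SE 0.0391) were the farthest. Most of all features lay above 0 h too, and the 7 members share the same arrays, so their common sign is no result about the family. With all 13 arrays no feature was called (0% higher, 0% lower, limma). At an unadjusted p under 0.05 were 2 members and 1179 of all features. The members' median of 0.0685 stood beside 0.0209 for all features. The fit of 11 arrays called 24 features higher and 2 lower, with 0 members called and 3 at an unadjusted p under 0.05. The mean of 4 h and 6 h against 0 h gave no call either with all 13 arrays (0% in each direction). In that contrast 0 members and 635 features had an unadjusted p under 0.05. There the fit of 11 arrays called 22 features higher and 2 lower, with 0 members called and 1 at an unadjusted p under 0.05. Array weights called 17 features at 0.5 and 1 h and 8 at 4 and 6 h. The lack of calls thus depended on the arrays kept and their weights. The arrays of 0.5 to 6 h are single, and their spread was taken to be that of the replicated times.

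**Figure D2:**
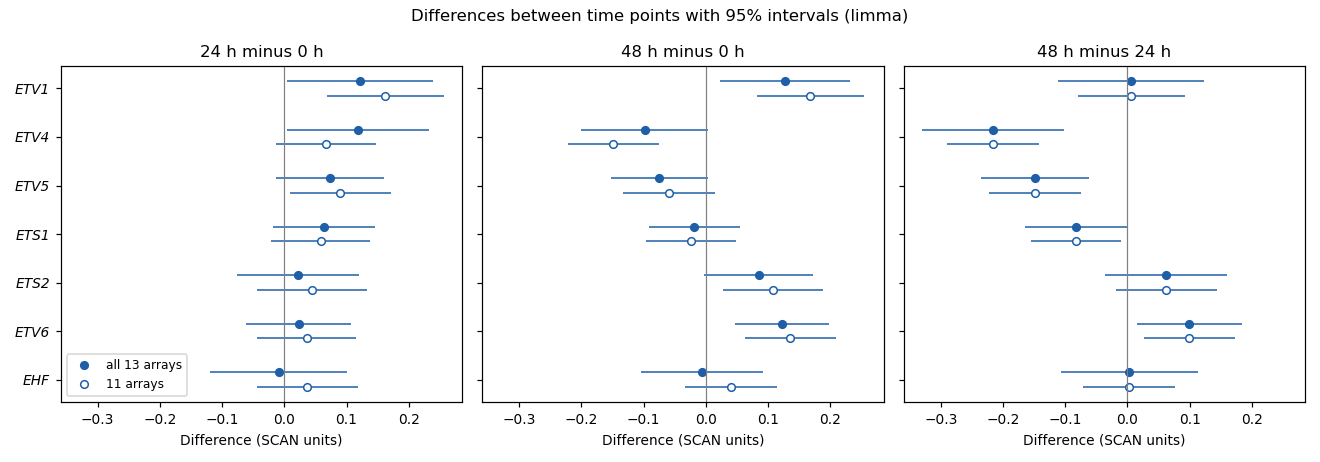
Differences between time points (SCAN units) with 95% intervals for the 7 ETS genes from limma, over 13 arrays (filled) and over 11 (open), in panels for 24 h minus 0 h, 48 h minus 0 h and 48 h minus 24 h. The estimates of ETV4 and ETV5 lie above 0 at 24 h minus 0 h, where the intervals of ETV5 over 13 arrays and ETV4 over 11 include 0. Both genes lie below 0 at 48 h minus 24 h (-0.216 and -0.149), ETV6 and ETV1 above 0 at 48 h minus 0 h, and EHF near 0.

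The contrast of EHF with the PEA3 genes was measured on each array as EHF minus the other gene, where the constant offset carries no meaning and the change does. EHF minus ETV1 was -0.763, -0.802 and -0.797 at 48 h, against -0.643, -0.697 and -0.622 at 0 h. The 48 h arrays lay below all 0 h arrays, and the change was -0.133 (95% interval -0.207 to -0.0592), so that EHF ended lower relative to ETV1, and at 24 h the change was -0.130 (-0.213 to -0.0477). The opposite sign held for the other pairs at 48 h. EHF minus ETV4 was -0.347, -0.272 and -0.294 at 48 h, against -0.202, -0.467 and -0.519 at 0 h, a change of 0.0918 (-0.0688 to 0.252) over 13 arrays and of 0.189 (0.104 to 0.273) over 11. EHF minus ETV5 changed by 0.0688 (-0.0309 to 0.169) over 13 arrays and by 0.0996 (0.0119 to 0.187) over 11. At 24 h these pairs changed by -0.127 (-0.307 to 0.0525) and -0.0833 (-0.195 to 0.0282). The 3 pairs share EHF, and no p is given. Their intervals use a variance shrunk, as in limma, towards that of single genes and not of differences between genes. Over 11 arrays this prior carried 9.74 degrees of freedom, against 4 from the arrays themselves. The interval of EHF minus ETV5 over 11 arrays therefore does not settle whether that change differs from 0.

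**Figure D3:**
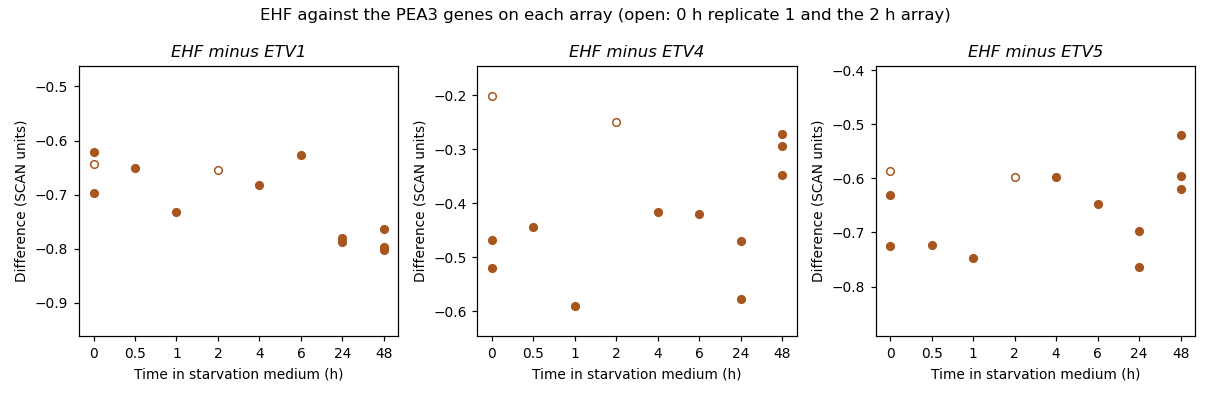
EHF minus ETV1, ETV4 and ETV5 on each of the 13 arrays (SCAN units) against time in starvation medium (h, categorical axis), with open points for 0 h replicate 1 and the 2 h array; each panel spans 0.5 units. EHF minus ETV1 is lowest at 24 and 48 h, between -0.763 and -0.802, and EHF minus ETV4 on 0 h replicate 1 (-0.202) and at 2 h (-0.250) lies above the other arrays.

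As a description, ETV4 and ETV5 varied together over the 13 arrays (r = 0.689, and 0.846 over 11), and each varied with ETS1 (r = 0.829 and 0.817), while ETV1 did not follow ETV4 (r = -0.392). These arrays share time points and each one its own standardisation. The genes most like ETV4 over the 13 arrays were PXN (r = 0.944), REEP4 (0.939), TTC7B (0.927), POMGNT2 (0.927) and BICRA (0.925). Those most like ETV5 were ZNF57 (0.913), DPY19L3-DT (0.912), ITPKB (0.907), PDE12 (0.883) and ZSCAN12P1 (0.883). Those most like EHF were SDAD1 (0.920), CADPS2 (0.912), METTL15 (0.891), ATG14 (0.885) and ZNF354B (0.881). The lists depend on the values used. Over the 8 time point means, none of those of EHF stayed among the 5 most alike. Of those of ETV5 only ZNF57 stayed, and of those of ETV4 PXN, REEP4 and TTC7B.

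Of 18 further ETS family genes 11 were tested, and 1 was called higher at 48 h, beside 9.86% of all features. SPDEF, a factor of secretory and goblet cells, read 0.542, 0.533 and 0.551 at 48 h, against 0.290, 0.408 and 0.397 at 0 h, and the groups did not overlap. It rose by 0.177 at 48 h (adjusted p = 0.00803, limma) and by 0.298 at 24 h (adjusted p = 0.00332). ELF1, a broadly expressed activator, was 0.110 higher at 48 h (adjusted p = 0.0708) and passed over 11 arrays at 0.140 (adjusted p = 0.00587). ETV7 and ELF5 lay near background, at means of 0.00386 and -0.0324. The vascular and blood factors ERG, FLI1 and SPIC, with FEV and ETV3L, were below 0 on all arrays and were not tested.

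Genes known as outputs of ERK signalling passed the test in part where ETV1, ETV4 and ETV5 did not. Of 12 measured ERK output genes, 6 were higher and 1 lower at 48 h against 0 h, with a median of 0.124. Of all features 9.86% were higher and 9.68% lower. DUSP6, the ERK phosphatase, read 1.41, 1.48 and 1.51 at 48 h, against 0.850, 0.840 and 0.907 at 0 h. It rose by 0.603 (adjusted p = 3.13e-06, limma), and EGR1, an immediate early factor, by 0.756 (adjusted p = 2.05e-06). SPRY4 and SPRY2, feedback inhibitors of receptor signalling, rose by 0.315 (adjusted p = 0.000152) and 0.458 (adjusted p = 0.000381). All 4 differences had the sign of that of ETV1 and the opposite of those of ETV4 and ETV5. Others of the 12 had the sign of ETV4 and ETV5. FOSL1, the 1 called lower, differed by -0.129 (adjusted p = 0.0265, limma). DUSP4 and EPHA2 differed by -0.102 and -0.0968 and were not called (adjusted p = 0.160 and 0.111). The difference between these genes and the PEA3 genes was not itself tested.

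**Figure D4:**
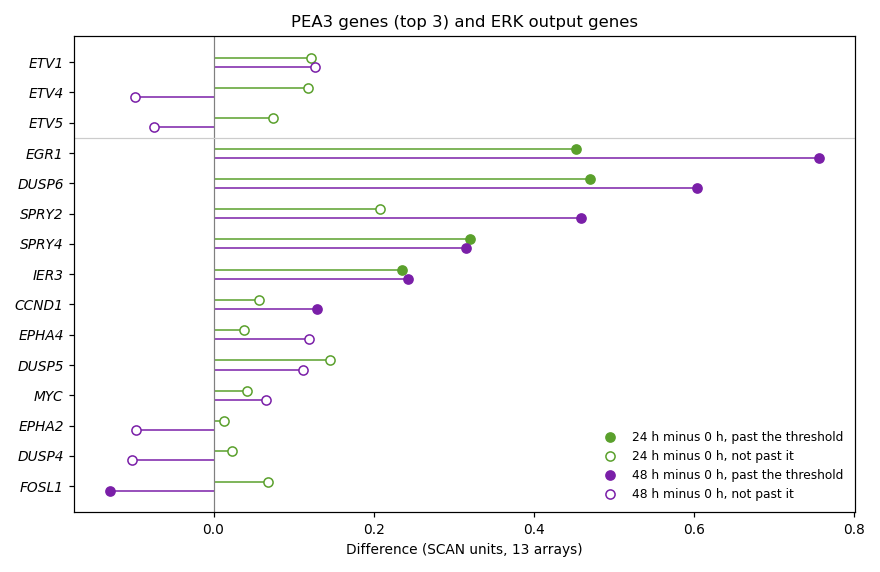
Differences from 0 h (SCAN units, 13 arrays) at 24 h and 48 h for ETV1, ETV4 and ETV5 (top) and for the 12 measured ERK output genes; filled points passed an adjusted p of 0.05 in limma and open points did not. DUSP6 and EGR1 reach 0.603 and 0.756 at 48 h, while the PEA3 genes stay between -0.0979 and 0.127.

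Among 11 measured partners and targets of the ternary complex, in which ELK factors sit beside SRF, 6 were higher and 0 lower at 48 h (median 0.170). Of all features 9.86% were higher and 9.68% lower. After EGR1 those with the smallest adjusted p were JUNB, up by 0.407 (adjusted p = 4.47e-05, limma), FOS, up by 0.203 (adjusted p = 0.00194), and SRF itself, up by 0.204 (adjusted p = 0.00233). In the ERK cascade 3 of 12 were higher and 1 lower (median 0.0644), beside the same shares of all features. ERBB3 and EGFR, receptors of the ERBB family, rose by 0.329 and 0.215 and the adaptor SHC1 by 0.277, while the ERK kinase MAP2K1 fell by 0.215 (adjusted p = 0.0346), and by 0.134 over 11 arrays, 0 h replicate 1 being high at 1.77.

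Beside 9.86% of all features, as for the next list, 2 of 5 measured regulators of the PEA3 factors were higher (median 0.0531). These were ATXN1 and ATXN1L, partners of Capicua, which rose by 0.208 (adjusted p = 0.0126, limma) and 0.151 (adjusted p = 0.0164). Capicua itself (CIC) differed by 0.0531 (adjusted p = 0.378), and by 0.0305 over 11 arrays. CUL4A, part of a ligase that degrades PEA3 proteins, differed by -0.0621 (adjusted p = 0.560) and, over 11 arrays, by 0.0176, 0 h replicate 1 being high at 1.34. Of 4 proteolysis genes with ETS sites, 2 were higher (median 0.0736): the collagenase MMP13 rose by 0.516 (adjusted p = 2.41e-06) and MMP14 by 0.121, while MMP1 differed by 0.0265 (adjusted p = 0.852) and passed over 11 arrays, at 0.119 (adjusted p = 0.0491). Of 13 epithelial and lung factors measured beside EHF, 3 were higher and 0 lower (median 0.00107), beside 9.86% and 9.68% of all features. TP63, OVOL1 and GRHL3, factors of stratified epithelium, rose by 0.319, 0.312 and 0.176, and FOXA2 differed by -0.159 (adjusted p = 0.0540) and fell over 11 arrays, by 0.221. Over 11 arrays 7 of the 13 were called, 5 higher and 2 lower, beside 14.8% and 12.7% of all features.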

How the data were processed

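The authors hybridised RNA to GeneChip Human Gene ST arrays and applied SCAN (Single Channel Array Normalisation) to 1 array at a time, so the deposited values are scores with no normalisation between arrays. Versions of the preprocessing software are not given in the sources used here. Platform annotation named 15426 of 39937 features, and 212 more were named from a supplementary table, used for names only. Features below 0 on every array (2662) were left out, which left 12976 features of 12375 symbols. RefSeq (GRCh38.p14) gave gene coordinates and promoter windows.

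Linear models with time point as a factor and no block were fitted to all 13 arrays with the lmFit and eBayes functions of limma (version 3.58.1, R version 4.3.3), two-sided, with Benjamini-Hochberg adjustment over all tested features and a threshold of 0.05. The script was tested on simulated data. The number of arrays limits the precision, and the median standard error of 48 h minus 0 h was 0.0408. Members and gene lists were chosen with earlier results of these data known. Named were all members, of other lists up to 4 genes with the smallest adjusted p, and the 5 features most correlated with ETV4, ETV5 and EHF. ERK output genes that were lower at 48 h than at 0 h were named in addition. Marker genes were chosen apart from this rule. Alternatives covered arrays left out, scaling, filters, variance model, array weights and a replicate block. Tables used Python 3.11.15, pandas 2.3.3, numpy 2.4.6 and matplotlib 3.10.9. EGF-treated arrays were not analysed here, and values of 1 listed gene are not reported.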

Additional observations from a re-analysis of the deposited data

How the results depend on the processing

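Outside the omission of single replicates, 287 recomputed member differences kept their sign and their side of the threshold, 13 newly passed it, 1 no longer did and 14 changed sign. With both arrays that stood apart left out, which gives the same values as omitting 0 h replicate 1, 4 members were called at 48 h against 0 h. At 24 h against 0 h 1 was called and at 48 h against 24 h 2. That fit called 3561, 2279 and 1340 of all 12976 features. Array weights gave 4, 1 and 2, in a fit that called 3755, 2106 and 1350 of all 12976 features, against 2536, 998 and 368 in the first fit. Quantile normalisation gave 2 at 48 h against 0 h, with 2700 of all features called. EHF changed sign at 48 h against 0 h, to 0.0403 without both arrays and 0.0378 with array weights, and at 24 h against 0 h, to 0.0372 and 0.0323. The mean of 0.5 and 1 h against 0 h turned for EHF, to -0.0338 with quantile normalisation, -0.0381 with centred arrays and -0.00154 with the replicate block, and for ETV1, to -0.000684 with centring. Quantile normalisation turned ETS1 at 48 h, to 0.00612, and in the mean of 4 and 6 h, to -0.00026. Centring turned the last, to -0.00873, ETV5 in the same contrast, to -0.000451, and at 24 h ETS2, to -0.0245, and ETV6, to -0.0240. None of these sign changes passed the threshold, and their cause was not tested.

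Without both arrays the change of EHF minus ETV4 was 0.189 at 48 h and -0.0301 at 24 h. The other ETS genes called were 2 and the epithelial and lung factors 7, also 2 and 7 with array weights, which called 11 ERK output genes. Over all features the calls at 24 h were 2279 without both arrays and 507 with the replicate block, and at 48 h against 24 h they were 1340 and 220. Same-numbered arrays did not deviate together (correlations of -0.152 to 0.062), so the numbers do not pair the samples. With the replicate block, 0 members were called at 48 h against 0 h (ETV6 adjusted p = 0.0668, limma), beside 2138 of all 12976 features. At an unadjusted p under 0.05 were 3 members, and no other member call changed.

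Leaving out each 0 h or 48 h replicate in turn gave 0 to 4 members called at 48 h, beside 1621 to 3561 of all 12976 features. At 24 h the members called were 0 to 1, beside 634 to 2279 features. At 48 h against 24 h they were 0 to 2, beside 158 to 1340. Neither of the ranges that involve 24 h covers the omission of a 24 h array, which leaves a single array at that time. How far these calls rest on either 24 h array is therefore not shown by them. With the 24 h replicates also left out in turn, the lists at 48 h against 0 h had these ranges of calls. They were 4 to 10 for ERK output genes, 1 to 4 for proteolysis genes and 2 to 7 for epithelial and lung factors. Other ETS genes had 1 to 2 and regulators of the PEA3 factors 0 to 2. EHF ranged from -0.0343 to 0.0403 at 48 h, from -0.0446 to 0.0372 at 24 h, from -0.0322 to 0.0385 at 48 h against 24 h, and from -0.0213 to 0.0534 at 0.5 and 1 h. ETS2 at 24 h ranged from -0.0167 to 0.0615, ETV6 at 24 h from -0.00421 to 0.0501, ETV1 at 48 h against 24 h from -0.0331 to 0.0449, and ETV5 at 4 and 6 h from -0.000850 to 0.0413. EHF minus ETV4 ranged from 0.0302 to 0.189 at 48 h and from -0.189 to -0.0301 at 24 h. No other probeset could be tried, since each member had 1. Single arrays between 0.5 and 6 h and a pair at 24 h limit all contrasts but that of 48 h with 0 h.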
